A study of Mus musculus with 3 samples.

Results

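Thyrotropes of the mouse pituitary were examined as the 300 cells that the authors' deposited table of cell barcodes assigns to cluster 14, out of 37474 cells in all. The KO library held 157 of them, the HT library 52 and the WT library 91, out of 13413, 12839 and 11222 cells. The cluster carries only a number in the deposited files, and its name was checked on 5 marker genes, Tshb, Cga, Trhr, Dio2 and Pou1f1. Each of the 5 had counts in the cluster in every library, and Tshb, Trhr and Dio2 stood higher there than in any other cluster of at least 50 cells.

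Thyrotropes make thyroid-stimulating hormone (TSH), a dimer of the beta subunit encoded by Tshb and of the alpha subunit encoded by Cga, which gonadotropes also use for their hormones. Thyrotropin-releasing hormone from the hypothalamus acts on the receptor encoded by Trhr, which signals through Gq and phospholipase C, and drives TSH production and release. Thyroid hormone restrains both, in part after the deiodinase encoded by Dio2 has converted thyroxine to the active hormone inside the cell. The lineage depends on the transcription factor POU1F1 (Pit1) together with GATA2, whereas Tpit, the product of Tbx19, acts in the corticotropes and melanotropes that make pro-opiomelanocortin (Pomc).

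The 3 genotypes were TpitKO, TpitHT and TpitWT, written KO, HT and WT below, with 1 library each. The labels do not spell out HT, and the way the allele was made and the number, age and sex of the mice are not given in the labels. Freshly dissected whole pituitaries were dissociated with trypsin, dead cells were left out by a sort on propidium iodide, and 3′ ends were counted on the Chromium droplet system. With 1 library per genotype no difference could be tested against the spread between animals. Every interval below is at 95% and covers counting error only, and because counts come clustered in cells the intervals are too narrow. Differences are therefore described by their size and called higher or lower in a library, never changed by a genotype.

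The thyrotropes gave 1652639 counts in KO, 574628 in HT and 886214 in WT, which is a mean of 10526, 11051 and 9739 counts per cell. Mitochondrial genes took 2.48%, 2.79% and 2.57% of these counts in KO, HT and WT. Tbx19 had 0 counts in the cluster in all 3 libraries, against 92 counts in KO, 1886 in HT and 1886 in WT over all other cells. A count of 0 allows up to 1.82, 5.22 and 3.39 CPM, the count of a gene scaled to the total of the cluster, in KO, HT and WT, taking 3 counts as the limit. The table row named LacZp had 2, 0 and 0 counts in the cluster in KO, HT and WT, which is under that limit. Hemoglobin genes gave 10 counts in KO thyrotropes, 0 in HT and 1061 in WT, where no hemoglobin gene had a count in more than 1 cell, and they were left out of the ranking of genes.

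The markers whose regulation defines this cell are shown first by their promoters, since Tshb, Cga and Dio2 are the genes that the levels below turn on. The 250 bases before a gene start that RefSeq lists on GRCm38.p6 were taken, at chr3:102782715-102782964 on the minus strand for Tshb, chr4:34893529-34893778 on the plus strand for Cga and chr12:90739039-90739288 on the minus strand for Dio2. Capitals mark matches to 4 short motifs searched on both strands: a cAMP response element (TGANGTCA, opposite strand TGACNTCA), a GATA site (AGATAA, opposite strand TTATCT), a Pit1 site (ATGNATA, opposite strand TATNCAT) and a TATA box (TATAAA, opposite strand TTTATA).
Tshb: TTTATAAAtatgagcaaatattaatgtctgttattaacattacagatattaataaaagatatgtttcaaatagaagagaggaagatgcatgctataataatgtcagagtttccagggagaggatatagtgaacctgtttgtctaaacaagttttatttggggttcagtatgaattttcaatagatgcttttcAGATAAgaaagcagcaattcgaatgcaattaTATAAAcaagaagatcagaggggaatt
Cga: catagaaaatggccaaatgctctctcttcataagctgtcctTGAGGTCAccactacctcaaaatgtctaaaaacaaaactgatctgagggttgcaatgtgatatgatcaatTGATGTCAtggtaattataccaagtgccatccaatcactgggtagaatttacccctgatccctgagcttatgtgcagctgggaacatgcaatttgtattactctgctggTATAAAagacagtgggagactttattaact
Dio2: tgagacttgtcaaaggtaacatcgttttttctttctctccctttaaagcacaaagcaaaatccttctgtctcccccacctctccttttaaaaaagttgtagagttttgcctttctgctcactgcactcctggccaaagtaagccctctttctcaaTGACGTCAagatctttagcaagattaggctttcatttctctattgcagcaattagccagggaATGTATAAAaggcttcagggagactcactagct
The RefSeq starts of Tshb and Dio2 are not those of the deposited gene positions given below, so distances are from the RefSeq start alone. Counted back from that start, Tshb held a TATA match at -27 to -22 and a GATA match at -58 to -53. A further pair of overlapping TATA matches lay at -250 to -243. Cga held a TATA match at -30 to -25 and cAMP response element matches at -139 to -132 and at -209 to -202. Dio2 held a cAMP response element match at -95 to -88 and a TATA match at -30 to -25, which overlaps its Pit1 match at -33 to -27. Of the 27025 mouse promoter windows of the same length in the table, 7.59% held the cAMP response element, 10.3% the GATA letters, 8.16% the Pit1 letters and 12.97% the TATA letters, so each match is a description of these letters and not of a bound site. A promoter of Trhr was not analysed here.

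Tshb (ENSMUSG00000027857, chr3:102775465-102782718, minus strand) stood at 50620 CPM in the KO thyrotropes, 35710 CPM in HT and 65253 CPM in WT. All other cells together had 208 CPM in KO, 125 CPM in HT and 148 CPM in WT. The next highest cluster was cluster 13, with 748 CPM over the 3 libraries. Endothelial-like cells (cluster 9), which do not make the hormone, had 408 CPM in KO, 251 CPM in HT and 368 CPM in WT, a level that RNA free in the droplets can give. Cluster 13 stood above this level in each library, at 1137 CPM in KO, 462 CPM in HT and 743 CPM in WT, and cluster 11 in HT and WT, at 507 and 477 CPM. Cluster 12 lay slightly above it, at 417, 253 and 372 CPM in KO, HT and WT. So did clusters 15 and 16 in KO, at 424 and 409 CPM, and cluster 8 in HT, at 263 CPM. Cluster 14 lay far above all of these.

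Cga (ENSMUSG00000028298, chr4:34893779-34907370, plus strand) stood at 103256 CPM in KO thyrotropes, 67536 CPM in HT and 74078 CPM in WT. It is shared with gonadotropes, and the gonadotrope-like cluster 3, which is highest in Lhb and Fshb, held 165467 CPM over the 3 libraries, above cluster 14. Dio2 (ENSMUSG00000007682, chr12:90724552-90738438, minus strand) stood at 448 CPM in KO, 263 CPM in HT and 302 CPM in WT, with cluster 13 next at 148 CPM. Its body overlaps Gm26512 on the opposite strand, and whether the counting used strand is not given in the sources used here. Trhr (ENSMUSG00000038760, chr15:44196135-44235912, plus strand) stood at 126 CPM in KO, 94.0 CPM in HT and 129 CPM in WT, and at 0 CPM in endothelial-like cells of every library. A Trhr count was seen in 55.4% of KO thyrotropes, 38.5% of HT and 49.5% of WT. Pou1f1 (ENSMUSG00000004842, chr16:65520511-65535005, plus strand) did not set the cluster apart, at 327 CPM in KO, 371 CPM in HT and 344 CPM in WT against 266, 266 and 287 CPM in all other cells, most of which are of the same lineage.

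**Figure D1:**
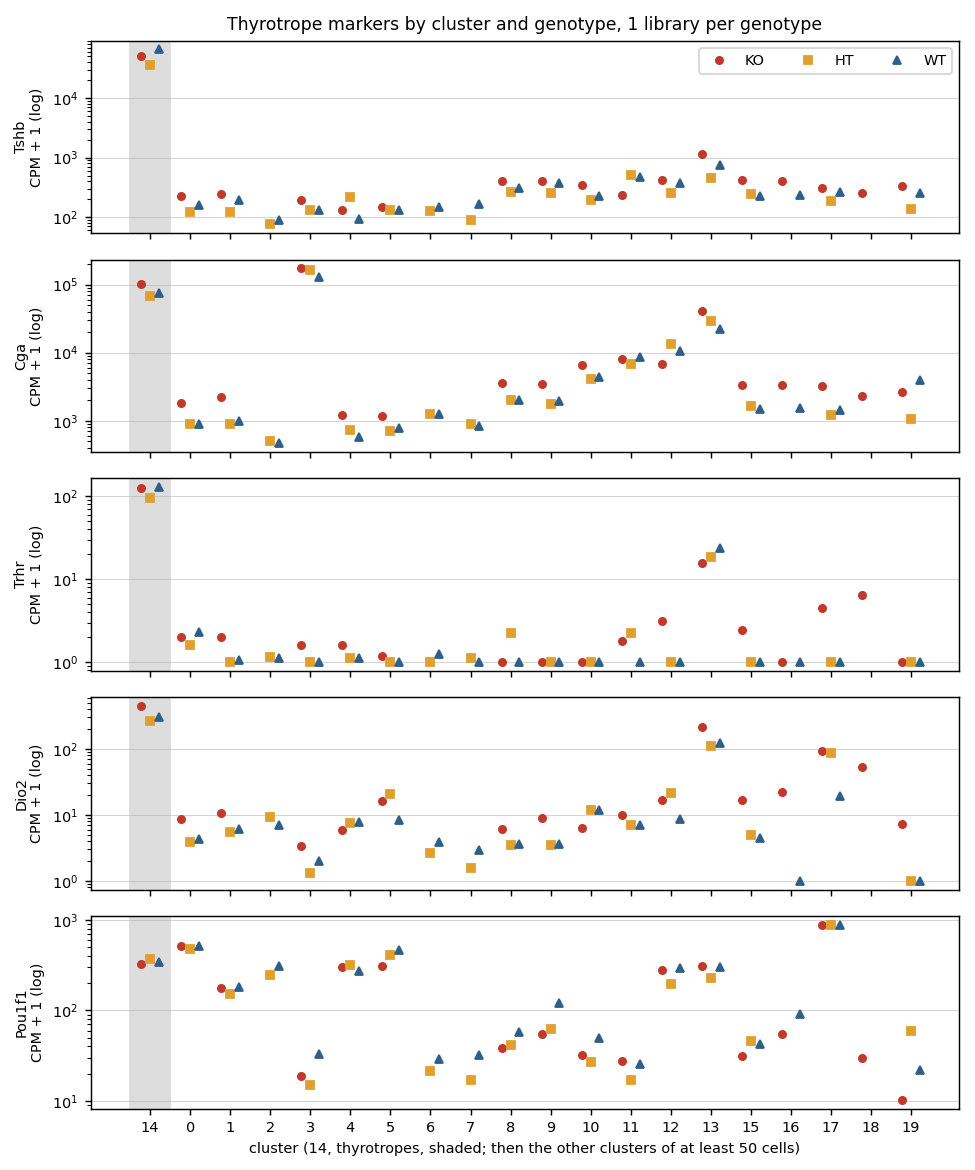
Levels of the 5 thyrotrope markers in each cluster of at least 50 cells, as CPM + 1 on a log axis, with 1 point per library (KO circles, HT squares, WT triangles) and cluster 14 shaded. Tshb, Trhr and Dio2 are highest in cluster 14 in each library, Cga is higher in cluster 3, and Pou1f1 is spread over several clusters.

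Thyrotropes made up 1.17% of the KO library (exact interval 0.995 to 1.37%), 0.405% of HT (0.303 to 0.531%) and 0.811% of WT (0.653 to 0.995%). The KO share was 1.44 times the WT share (1.11 to 1.89) and 2.89 times the HT share (2.10 to 4.03), and the HT share was 0.499 times the WT share (0.348 to 0.710). HT thus lay below both other libraries and not between them. Shares depend on what else a library holds: clusters 6 and 7, where Pomc was made, are absent from KO. Over the cells outside these 2 clusters the shares were 1.17%, 0.470% and 0.967% in KO, HT and WT, and the KO to WT ratio was 1.21 with an interval of 0.929 to 1.58 that includes 1. Within clusters 0, 1, 2, 4, 5 and 14, taken here as a set of large Pit1 lineage clusters, the shares were 1.86%, 0.585% and 1.17%, and the KO to WT ratio was 1.58 (1.22 to 2.07). Clusters 17, 13 and 12, with Pou1f1 at 878, 273 and 271 CPM, also held this factor and were not in the set. A share of captured cells does not give a number of cells per gland, and the spread between dissections was not tested.

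**Figure D2:**
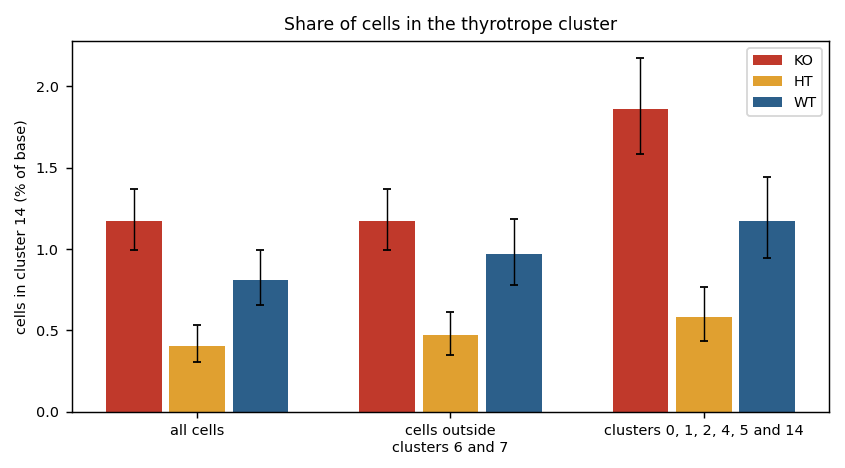
Cells of cluster 14 as a percentage of 3 bases (all cells, cells outside clusters 6 and 7, and clusters 0, 1, 2, 4, 5 and 14 of the Pit1 lineage), with bars for KO, HT and WT and exact binomial intervals for counting error. HT is lowest on each base, from 0.405% to 0.585%, and the KO bar is higher than the WT bar on each, with intervals that overlap on the base without clusters 6 and 7.

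Beyond the hormone genes, some genes of the secretory granule and of ion channels stood higher in thyrotropes than in other cells, with 5 of 23 and 4 of 21 measured list members at a log2 ratio of at least 1 in each library. Of 6989 genes with at least 50 counts in the cluster, 158 (2.26%) stood at a log2 ratio of at least 1 above all other cells in each library, and 38 (0.544%) at a log2 ratio of -1 or less. All log2 ratios were taken after adding 10 CPM to both levels, which shrinks the ratio of low genes. The clustering used these levels, so the ratios describe the cluster and test nothing. Of the 20 genes with the largest ratios, 17 were higher in cluster 14 than in any other cluster, and for 9 the next highest was cluster 13.

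Chgb, which encodes chromogranin B of the granule core, stood at 33801 CPM in KO thyrotropes, 28582 CPM in HT and 25784 CPM in WT, against 3923, 3157 and 2972 CPM in all other cells. Resp18, an endocrine granule protein, stood at 4428, 4881 and 4234 CPM in KO, HT and WT, against 899, 1162 and 970 CPM elsewhere. Of the 23 measured genes of the secretory granule list, 5 were higher by this rule in each library: Chgb, the secretogranin gene Scg2, the prohormone convertase gene Pcsk1, the vesicle priming gene Cadps2 and the vesicle GTPase gene Rab3a. The list's median log2 ratio over other cells was 0.66 in KO, 0.78 in HT and 0.68 in WT.

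Channel genes were among the highest as well. Grin3a, an NMDA receptor subunit, stood at 203 CPM in KO, 132 CPM in HT and 113 CPM in WT, and at 70.0 CPM in cluster 13, the next highest. Kcnk9, a two-pore potassium channel of the TASK group, stood at 116, 178 and 130 CPM in KO, HT and WT, against 7.35, 9.50 and 9.88 CPM in other cells. Trpc5, a cation channel, stood at 96.2, 118 and 81.2 CPM and was slightly higher in cluster 13, at 109 CPM. Of 21 measured ion channel genes, 4 were higher than in other cells in each library, namely Trpc5, the potassium channel gene Kcnk3, the sodium channel gene Scn3a and the calcium channel subunit gene Cacna2d2.

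Pvalb, a cytosolic calcium buffer, stood at 79.3, 167 and 102 CPM in KO, HT and WT, against 4.56 CPM in cluster 13, the next highest. Over the 3 libraries this is a fold of 22.3 over the next cluster, beside 69.6 for Tshb and 6.76 for Trhr. Irs4, an insulin receptor substrate, stood at 225, 183 and 195 CPM, and Rbp4, the retinol carrier, at 642, 900 and 993 CPM. Ttn (titin), Thy1, Slc10a4, Nell1, Mt3, Mgp, Parm1, Btg3 and Trnp1 completed the 20, with smallest log2 ratios over other cells from 3.11 for Ttn to 1.96 for Trnp1. Mgp, matrix Gla protein, is no marker of this cluster alone, since cluster 15 held 3794 CPM.

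Among 16 measured regulators of the lineage, 5 were higher than in other cells in each library, beside 2.26% of all genes. Rxrg, the retinoid X receptor gamma, had the largest of these ratios and stood at 98.0 CPM in KO, 122 CPM in HT and 84.6 CPM in WT, against 14.2, 18.7 and 17.1 CPM elsewhere. Gata2 stood at 124, 132 and 84.6 CPM in KO, HT and WT, with cluster 13 and cluster 3 above it. Pitx1, Isl1 and Foxl2, which thyrotropes share with gonadotropes, were the others.

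Of 5 measured receptors for hypothalamic and local signals, Trhr and the neuropeptide Y receptor gene Npy1r were higher than elsewhere in each library. The share of all genes higher by this rule was 2.26%. Npy1r stood at 42.4 CPM in KO, 29.6 CPM in HT and 16.9 CPM in WT, against 0.509, 0.349 and 0.554 CPM in other cells. Plcb1, a phospholipase C that Gq activates, stood at 88.9, 87.0 and 114 CPM against 21.8, 17.6 and 18.3 CPM elsewhere, and with Trhr it made 2 of 13 genes of TRH signalling higher by the rule. Dio2 was the 1 of 12 genes of thyroid hormone handling that passed, while the receptor genes Thrb (103, 80.1 and 79.0 CPM in KO, HT and WT) and Thra (45.4, 59.2 and 44.0 CPM) lay near their level in other cells. Pars tuberalis thyrotropes carry their own markers, and of that list 1 gene of the 9 in the table, Eya3, reached 50 counts in the cluster.

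The cluster was low in immediate early genes, which dissociation of tissue also induces. Fos stood at 801 CPM in KO, 418 CPM in HT and 800 CPM in WT, against 2894, 2467 and 2490 CPM in other cells, and Jun at 220, 183 and 352 CPM against 1414, 1050 and 1185 CPM. Of 14 measured genes for early response and heat shock, 8 were at a log2 ratio of -1 or less in each library. The share of all genes measured in the cluster was 0.544%. Cell cycle genes were near absent: Mki67 had 2, 0 and 0 counts in KO, HT and WT, and of 24 genes of that list 6 reached 50 counts, the cyclins and inhibitors among them. Cdkn2c, an inhibitor of the cyclin D kinases, was highest here of all clusters, at 62.3 CPM in KO, 71.4 CPM in HT and 31.6 CPM in WT.

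Across the 20 clusters of at least 50 cells, the genes whose level ran most like Tshb were Pvalb (Pearson r 0.929), Trhr (0.926), Grxcr2 (0.915), Dpp10 (0.809) and Fstl5 (0.798). These correlations rest on 1 high cluster of 20 and share its libraries. On the authors' deposited UMAP map, 97.5% of the 15 nearest neighbours of thyrotropes were thyrotropes. Of the 113 neighbours from other clusters, 90 came from cluster 0, and 1 KO cell lay 10.3 map units from the middle of the cluster. Of the 115 barcodes found in more than 1 library, 3 belonged to thyrotropes.

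RNA of other cell types was present at low levels. Markers of endothelial cells summed to 0 CPM in KO, 6.96 CPM in HT and 7.90 CPM in WT, those of stem cells to 3.63, 6.96 and 3.39 CPM and those of macrophages to 7.26, 8.70 and 2.26 CPM. Of the 5 pericyte markers, 4 had no count in any library. Gh and Prl, the hormones of the largest clusters, took 2.05%, 0.914% and 1.91% of thyrotrope counts in KO, HT and WT. Gh gave 110, 73.0 and 153 counts per cell in KO, HT and WT, against 114, 172 and 341 in endothelial-like cells, which held a mean of 4250, 4343 and 3610 counts per cell. It was thus at or below the level of a cell type that does not make it. Markers of gonadotropes other than Cga were near background in CPM, though endothelial-like cells held fewer total counts per cell. Lhb stood at 71.4, 33.1 and 40.6 CPM in KO, HT and WT thyrotropes. It stood at 106 CPM in KO and 111 CPM in WT endothelial-like cells.

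The TSH subunits differed in opposite directions between KO and WT. Tshb was lower in KO than in WT, at 50620 against 65253 CPM, a fold of 0.776 (0.768 to 0.784), and lower still in HT at 35710 CPM. Cga was higher in KO than in WT, at 103256 against 74078 CPM, a fold of 1.39 (1.38 to 1.41), while HT had 67536 CPM. The ratio of Cga to Tshb counts was 2.04 in KO, 1.89 in HT and 1.14 in WT, so KO and HT were alike in this ratio though not in either level. Cga also differed outside the cluster, with 30251, 12016 and 7213 CPM in the other cells of KO, HT and WT pooled. Within the gonadotrope-like cluster 3 alone it stood at 173212, 166169 and 131177 CPM, and in endothelial-like cells at 3507, 1777 and 1931 CPM. The part of cluster sizes in the pooled difference was not tested. Per cell Cga gave 1087, 746 and 721 counts in KO, HT and WT thyrotropes, against 14.9, 7.72 and 6.97 in endothelial-like cells. Neither subunit reached a log2 ratio of 1 between genotypes.

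Dio2 was higher in KO than in WT by a fold of 1.48 (1.29 to 1.71). HT lay below both, at 263 CPM, so HT and WT were closer to each other than to KO. Trhr differed by a fold of 0.978 between KO and WT (0.775 to 1.24), and Pou1f1 by 0.949 (0.824 to 1.10), both intervals including 1. Of the 15 regulators measured in KO and WT, 12 were above 0 on the log2 scale and 3 below, where 55.9% of all genes were below. None passed a ratio of 1 in size, and the median was 0.25. The same genes had a median of 0.36 in all other cells. In KO against HT the tally turned, with 12 of 15 measured regulators below 0, beside 61.6% of all genes, and a median of -0.14. Of 11 genes of TRH signalling, 7 were below 0, close to the 55.9% of all genes measured in KO and WT, and none passed a ratio of 1 in size. Their median was -0.28, beside 0.13 in all other cells. Of those below 0, the calcium channel gene of the endoplasmic reticulum Itpr1 stood at 49.6 CPM in KO, 66.1 CPM in HT and 77.9 CPM in WT. The regulator of G protein signalling Rgs2 stood at 111, 141 and 164 CPM. Another 4 of the 11 were above 0, among them the calcium channel gene Cacna1d at a log2 ratio of 0.19 for KO over WT.

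Across the whole table, 6129 genes had at least 50 counts in KO and WT thyrotropes together. Of these, 17 (0.277%) were higher in KO by a log2 ratio of at least 1, 46 (0.751%) were lower by as much, and 55.9% had a ratio below 0. The median gene stood at -0.05, and with ratios centred on it 23 genes were higher and 36 lower. KO against HT gave 29 higher (0.52%) and 45 lower (0.806%) of 5582 genes, 61.6% of them below 0. Because HT and WT each rest on 1 library, genes were named where KO differed from both in the same direction. The log2 ratio had to be at least 1 in size against WT and only 0.5 against HT, so HT can lie near KO. Of 5474 genes with enough counts and not skipped in the ranking, 10 were higher in KO by this rule and 28 lower. Of the 28 lower, 8 were also lower in all other cells by a log2 ratio of 0.5 or more and 3 stood above 0 there. Of the 10 higher, 5 were also higher in all other cells by at least 0.5. The median of the 6129 genes in all other cells was 0.03. Their share past these limits there was not taken, so these tallies cannot be called many or few.

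**Figure D3:**
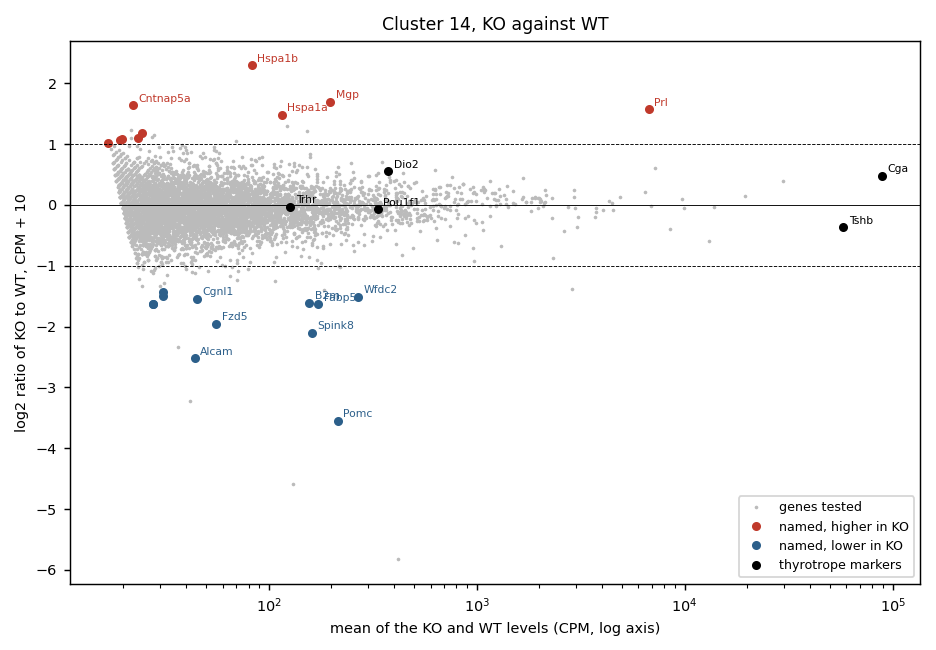
Log2 ratio of KO to WT in cluster 14 (10 CPM added) against the mean of both levels on a log axis, with 1 point for each of 6129 genes, the named genes in colour and the 5 markers in black. Dashed lines mark a log2 ratio of 1 and -1, and the 5 markers lie between them.

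Among the genes lower in KO were Spink8 and Wfdc2, each of which was higher in thyrotropes than in any other cluster. Spink8, a Kazal-type protease inhibitor, stood at 55.1 CPM in KO, 270 CPM in HT and 269 CPM in WT. The KO level was lower than that of WT by a factor of 4.88 (3.82 to 6.28), and HT and WT were level. Spink8 was lower in the other cells of KO too, at 7.76 CPM against 50.4 in HT and 48.5 in WT, with cluster 0 the next highest. Wfdc2, a protein of the whey acidic protein family, stood at 134 CPM in KO, 592 CPM in HT and 403 CPM in WT, a fold of 0.333 for KO over WT (0.281 to 0.395). In contrast to Spink8, its level in all other cells was close in the 3 libraries, at 48.9, 56.5 and 55.2 CPM. Wfdc2 was uneven between cells, with a count in 38.9% of KO, 63.5% of HT and 62.6% of WT thyrotropes, against 2.14% to 5.31% of endothelial-like cells.

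Alcam, an adhesion molecule of the immunoglobulin family, stood at 6.05 CPM in KO, 64.4 CPM in HT and 82.4 CPM in WT, a fold of 0.0735 for KO over WT (0.0338 to 0.143). It was highest in cluster 7, which KO lacks, and endothelial-like cells had 1.71, 17.2 and 18.7 CPM in KO, HT and WT, and the part of this background in the result was not tested. Fzd5, a Wnt receptor, stood at 16.9, 48.7 and 94.8 CPM in KO, HT and WT, against 6.57, 10.2 and 9.80 CPM in other cells. The 3 libraries did not overlap in their counting intervals for Fzd5, with HT between the other two. Fabp5, a fatty acid carrier with pseudogene copies that make its count uncertain, showed the same order, at 79.3, 146 and 267 CPM. B2m, the light chain of class I histocompatibility molecules, stood at 72.6, 167 and 241 CPM in KO, HT and WT, and the endothelial-like cells, where it is abundant, held 2641, 2455 and 2057 CPM.

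The other named genes lower in KO were sparse, at 72.2 CPM or less in each library. They were Usp2, a deubiquitinase, Cgnl1, a junction protein, Mrap2, an accessory protein of melanocortin receptors, Sms, the spermine synthase, and Ddit4l, an inhibitor of mTORC1. Ddit4l stood at 8.47 CPM in KO, 33.1 CPM in HT and 47.4 CPM in WT, a fold of 0.179 (0.0902 to 0.334) for KO over WT. Pomc headed the list by size, at 25.4 CPM in KO, 446 CPM in HT and 405 CPM in WT, but endothelial-like cells held 10.7, 1295 and 3212 CPM. In HT and WT the thyrotrope value lay below that background and is read as such.

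Hspa1b had the largest log2 ratio of KO to WT among the genes named as higher, at 2.29, followed by Mgp, Cntnap5a, Prl and Hspa1a. Hspa1b and Hspa1a encode the stress-induced HSP70. Hspa1b stood at 144 CPM in KO, 41.8 CPM in HT and 21.4 CPM in WT, and Hspa1a at 175, 88.8 and 56.4 CPM. The 2 genes are near-identical copies, so the split between them is uncertain. Both were higher in the other cells of KO than of WT as well, Hspa1a with 172, 159 and 75.3 CPM in KO, HT and WT. Mgp stood at 307 CPM in KO, 139 CPM in HT and 88.0 CPM in WT, a fold of 3.49 for KO over WT (2.74 to 4.48), with 31.0, 14.9 and 12.8 CPM in other cells. Fibroblast markers, another source of Mgp, summed to 24.2 CPM in KO, 12.2 CPM in HT and 29.3 CPM in WT thyrotropes, with 5 of 6 at 0 in KO. Cntnap5a, a neurexin-related adhesion protein, stood at 38.7, 24.4 and 5.64 CPM in KO, HT and WT and near 1 CPM in the other cells of each library, and it was highest in cluster 14. Prl stood at 10063, 2532 and 3377 CPM in KO, HT and WT, which is 106, 28.0 and 32.9 counts per cell. Endothelial-like cells held 103, 42.2 and 137 counts per cell, so Prl was near or below their level in each library. Their level was lower in KO than in WT, unlike that of thyrotropes, and the source of the Prl difference was not tested. Casd1, Fam207a, Trib2, Smc2 and Hsf2 were higher in KO at 38.1 CPM or less, and Casd1 shares its strand and position with Gm44432.

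**Figure D4:**
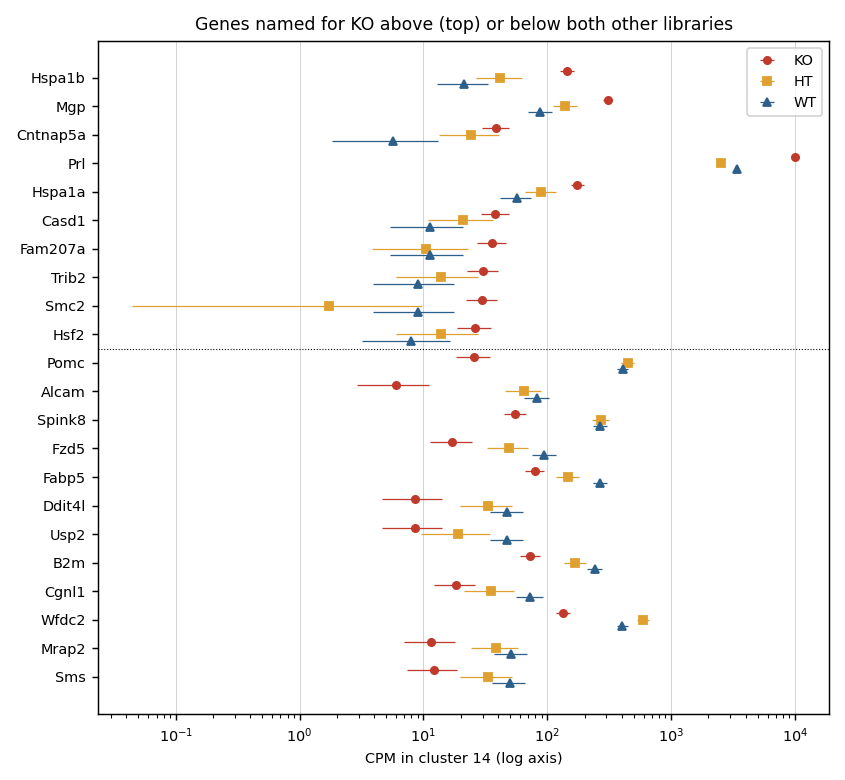
CPM in cluster 14 of the 10 genes named as higher in KO (above the dotted line) and the 12 named as lower, on a log axis, with KO, HT and WT from top to bottom within each gene and exact Poisson intervals. Spink8 and Alcam have HT and WT close together and KO well below. Wfdc2 has HT above WT and KO below both, whereas Fzd5, Fabp5 and Cgnl1 have HT between KO and WT.

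Genes of the unfolded protein response, the chaperones and folding enzymes that the endoplasmic reticulum makes under a secretory load, stood mostly below their WT level in KO and in HT. All 21 of the list were measured. Hspa5, the chaperone BiP, stood at 1001 CPM in KO, 988 CPM in HT and 1606 CPM in WT, a fold of 0.624 for KO over WT (0.581 to 0.670) and of 0.616 for HT over WT (0.558 to 0.679). Hsp90b1 stood at 667, 766 and 1277 CPM, Manf at 617, 567 and 943 CPM and Sdf2l1 at 318, 207 and 502 CPM in KO, HT and WT. Creld2, at 59.3, 38.3 and 156 CPM, was the 1 gene past a log2 ratio of -1 in KO against WT. In KO against WT 19 of the 21 were below 0, beside 55.9% of all genes tested, with a median of -0.40 beside -0.05 for all genes. KO against HT had a median of 0.01, with 9 of 20 below 0 beside 61.6% of all genes, so KO and HT were close on this list. In HT against WT 17 of 20 were below 0, beside 43.1% of all genes tested, with a median of -0.52, and Creld2 and Sdf2l1 passed a log2 ratio of -1.

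In all other cells pooled the KO to WT median of the same genes was -0.06, and in cluster 0 it was -0.13. In the gonadotrope-like cluster 3, which makes the same alpha subunit, it was -0.44, with 20 of the 21 below 0. In HT against WT all 20 measured genes were below 0 in cluster 3, with a median of -0.27, and 19 of 20 in cluster 1, with -0.25. The HT to WT median was -0.07 in all other cells pooled and -0.08 in cluster 0. The lower level was therefore not found in thyrotropes alone in either comparison. Against other cells of its own library the list's median log2 ratio was 0.21 in KO, 0.25 in HT and 0.72 in WT thyrotropes. Of the transcription factors of this response, Xbp1 stood at 88.9, 110 and 107 CPM and Atf4 at 102, 67.9 and 120 CPM in KO, HT and WT. Of 11 measured genes of glycoprotein glycosylation, most of them of the oligosaccharyltransferase and of N-glycan trimming, 10 were below 0 in KO against WT, beside 55.9% of all genes, with a median of -0.20 and none past -1, and their median in all other cells was 0.09. Rpn1, an oligosaccharyltransferase subunit, stood at 73.8 CPM in KO, 115 CPM in HT and 142 CPM in WT. Because WT is a single library, a high value in WT and a low value in KO and HT cannot be told apart.

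**Figure D5:**
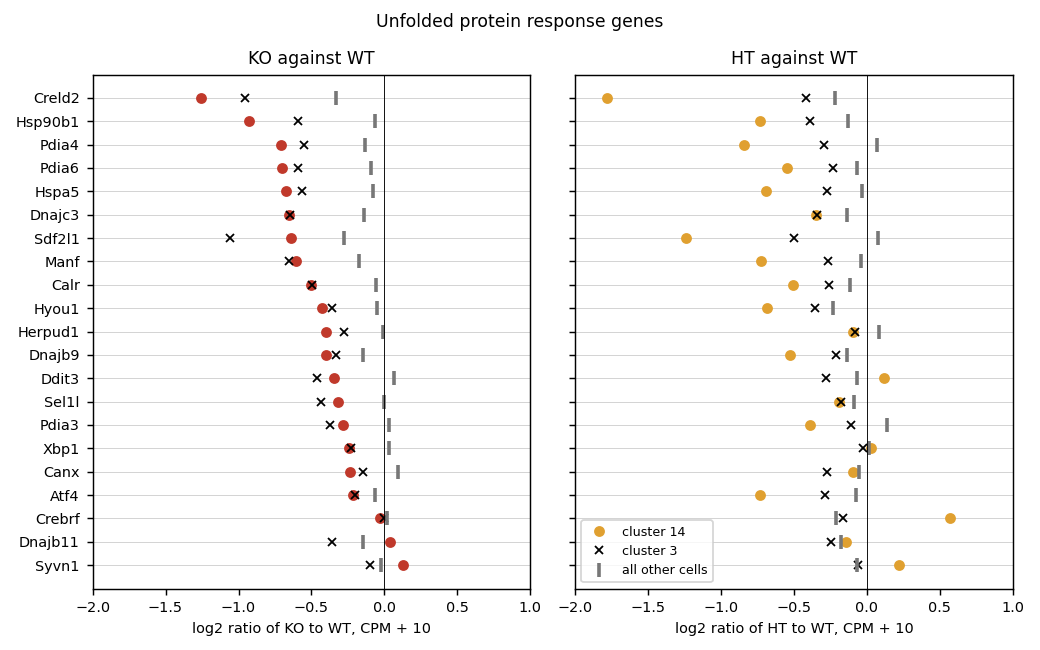
Log2 ratios (10 CPM added) of the 21 unfolded protein response genes, KO against WT on the left and HT against WT on the right, in cluster 14 (filled circles), cluster 3 (crosses) and all other cells pooled (grey bars). In KO against WT 19 of the 21 circles lie below 0, the crosses of cluster 3 lie near them, and the grey bars lie close to 0.

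Of 20 genes that glucocorticoids induce in many tissues, 8 had at least 50 counts in KO and WT. Of the 8, 2 were lower in KO by a log2 ratio of 1 or more, beside 0.751% of all genes. A total of 7 were below 0, beside 55.9% of all genes, with a median of -0.57 beside -0.05. Cebpd, a transcription factor, stood at 96.8 CPM in KO, 212 CPM in HT and 271 CPM in WT, and Glul, the glutamine synthetase, at 41.8, 101 and 100 CPM. These were the 2 genes past a log2 ratio of -1. Against HT 5 of the 8 were below 0, a share close to the 61.6% of all genes, with a median of -0.36. There 2 genes were lower by 1 or more, and Dusp1, at 99.2, 29.6 and 103 CPM in KO, HT and WT, was higher in KO by more than 1. Mt1, a metallothionein, stood at 107, 191 and 184 CPM. Fkbp5, a cochaperone of the glucocorticoid receptor, had 10, 12 and 33 counts, too few for the count minimum, at 6.05 CPM in KO, 20.9 CPM in HT and 37.2 CPM in WT. HT and WT were close for Glul and Mt1, and KO stood apart from both. In all other cells the KO to WT median of the 8 genes was -0.26, and in endothelial-like cells it was -0.73. Within the list Tsc22d3 and Per1 were level, at 36.9, 34.8 and 31.6 CPM and at 12.1, 12.2 and 12.4 CPM in KO, HT and WT. The receptor gene Nr3c1 stood at 67.2, 60.9 and 45.1 CPM.

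HT against WT gave 19 higher (0.452%) and 32 lower (0.761%) genes of 4204, with 43.1% below 0 and the median gene at 0.06. The balance moved with the scaling: totals without hormone and mitochondrial genes gave 16 higher and 54 lower, the authors' scaled counts 10 and 58, and centring on the median gene 14 and 44. The 52 HT cells set the depth here. The 5 lowest in HT by the rule were Gal, Nr4a2, Creld2, Cebpb and H2-M3. Gal, the galanin gene, stood at 5.45 CPM in KO, 3.48 CPM in HT and 67.7 CPM in WT. Endothelial-like cells of WT held 93.7 CPM of Gal but fewer total counts per cell than thyrotropes. The part of this background in the WT level was not tested. Nr4a2, an immediate early nuclear receptor, stood at 33.9, 3.48 and 57.5 CPM in KO, HT and WT, and H2-M3, a class I molecule, at 49.0, 10.4 and 53.0 CPM, so that for both HT stood apart from KO and WT. Cebpb, which overlaps Tmem189 on the opposite strand, stood at 42.4, 20.9 and 88.0 CPM.

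The 5 highest in HT were the histone genes H2bu2 and H2aw, Rbm3, Stmn2 and Ap4s1. Rbm3, a cold-induced RNA-binding protein, stood at 178 CPM in KO, 181 CPM in HT and 66.6 CPM in WT, and at 124, 112 and 52.5 CPM in all other cells, so WT was lower inside and outside the cluster. Stmn2, a regulator of microtubules, stood at 67.8, 174 and 65.4 CPM in KO, HT and WT. H2bu2 stood at 76.8, 151 and 38.4 CPM and H2aw, which overlaps Trim17 on the same strand, at 55.1, 95.7 and 24.8 CPM. Ap4s1 overlaps Strn3 on the opposite strand and stood at 39.9, 76.6 and 26.0 CPM. Of 12 measured genes for early response and heat shock, 10 were below 0 in HT against WT, beside 43.1% of all genes tested. Their median was -0.50, beside 0.06 for all genes. The same genes had a median of -0.02 in all other cells and of -0.23 in cluster 3, where 10 of the 12 were below 0 too, so the tally was not seen in thyrotropes alone.

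In KO against WT, 55.9% of all genes were below 0, and the remaining lists stood as follows. Of 23 secretory granule genes 15 were below 0, with a median of -0.12 and none past a log2 ratio of 1 in size, although the most abundant were higher in KO: Chgb at 33801, 28582 and 25784 CPM and Scg2 at 8680, 7194 and 5674 CPM in KO, HT and WT. Of 18 ion channel genes the median was -0.04, and 1 passed, the potassium channel gene Kcnk1, at 10.3, 27.8 and 37.2 CPM. Of 9 genes of thyroid hormone handling the median was 0.03. Of 6 genes that respond to thyroid hormone in other tissues 4 were below 0, with a median of -0.28, and Klf9, one of them and also a gene that glucocorticoids induce, stood at 70.2, 97.5 and 102 CPM in KO, HT and WT. Of 8 clock genes 5 were above 0, with a median of 0.27 beside 0.29 in all other cells, led by Per3 at 93.8, 120 and 56.4 CPM. Of 6 cell cycle genes the median was 0.02, and of 5 receptor genes it was -0.03. Of 13 genes for early response and heat shock 8 were below 0, with a median of -0.16, and Hspa1b and Hspa1a passed a log2 ratio of 1. Gal, at -2.33, was the 1 neuropeptide gene with enough counts, and the part of background in its WT level was not tested. Vip, which a few cells carried, had 0 counts in KO, 19 counts in 2 HT cells and 37 counts in 6 WT cells. Set against HT in place of WT, 1 of 13 genes for early response and heat shock was below 0 in KO, with a median of 0.64. Of 8 clock genes 6 were below 0 there, with a median of -0.17, where 61.6% of all genes were below 0.

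Some genes were unevenly spread among thyrotropes of the same library. There were 962 genes with a mean of at least 1 count per cell in each library. For each gene, the share of cells with a count was divided by the share that even spreading would give. The largest ratio of the 3 libraries was taken, and its median over genes was 0.912. The lowest of these ratios, chosen after the values were seen, were for Txnip and Ttn. Txnip, a thioredoxin inhibitor, had a count in 38.2% of KO, 42.3% of HT and 40.7% of WT thyrotropes, where even spreading would give 66.6%, 73.0% and 67.8%. Ttn had a count in 44.6%, 53.8% and 46.2% of KO, HT and WT cells, against 76.1%, 87.2% and 78.1% under even spreading and under 1% of endothelial-like cells. Because genes were ranked by their largest ratio of the 3 libraries, a low ratio in each library followed from the choice. Fosb, Jun, Fkbp11, Six6, Gpx3, Rgs2 and Tmsb4x were the next after Wfdc2.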

How the data were processed

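Per the labels, 1 library per genotype was made from dissociated pituitaries. Cell Ranger 5, Seurat 3.1, DESeq2, mm10 and GRCm38 appear in the submitters' processing notes, with no step assigned to any. The authors deposited whole-number counts, added up by genotype and cluster. Collapse of reads to molecules is not given in the sources used here. They also deposited the same sums times 1 factor, recorded as signal, which were used as an alternative, and, under the unit other, cells with a count and a table of barcodes, clusters and UMAP positions. No counts of single cells were used, and doublets were not treated further.

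Here the counts of cluster 14 were divided by their total (CPM), and 10 CPM was added before log2 ratios. A comparison took genes with at least 50 counts in the 2 libraries. No test between libraries was run. Intervals were exact: Poisson for levels, conditional binomial for ratios and Clopper-Pearson for shares. Named genes were the 5 markers, the 20 highest over other cells, up to 12 each way for KO (at least 20 CPM, log2 ratio at least 1 against WT and 0.5 against HT), 5 each way for HT, and, from each of 16 lists, the 4 highest members and those past the rule, of which a selection is given. The ranking skipped predicted genes and those that are mitochondrial, ribosomal, sex-linked or of hemoglobin. The members and lists were chosen with earlier results of these data known. Gene positions were the deposited ones, equal to GENCODE M21 on GRCm38 for 52900 of 53361 symbols. The scripts were checked on simulated counts, whose values are not given here. Python 3.11.15, numpy 2.4.6, pandas 2.3.3, scipy 1.17.1 and matplotlib 3.10.9 were used.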

Additional observations from a re-analysis of the deposited data

Results flagged for a closer look

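Ddit4l, an inhibitor of mTORC1, was lower in KO than in WT thyrotropes, a fold of 0.179 (0.0902 to 0.334) on 14 and 42 counts, and higher in KO than in WT in all other cells, a fold of 1.37 (1.27 to 1.47). It was singled out because the counting intervals of the thyrotropes and of the other cells lie on opposite sides of 1, and the difference between them was not tested.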

How the results depend on the processing

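No paired analysis was possible because a genotype was represented by 1 library. Numbers of genes past the fold rule depended on the settings. With 1 CPM added, 64 genes were higher and 119 lower in KO than in WT, and 51 higher and 71 lower in HT than in WT. With 50 CPM added these were 4, 13, 2 and 8, with no minimum of counts 40, 101, 190 and 198, and with a minimum of 200 counts 6, 13, 1 and 6. Totals without hormone and mitochondrial genes gave 26 higher and 48 lower in KO and 16 higher and 54 lower in HT. The authors' scaled counts gave 20 and 50 in KO and 10 and 58 in HT, and KO against HT gave 29 and 45. The authors' scaling moved the median gene of HT against WT by -0.10. The KO share of thyrotropes was 2.89 times that of HT, beside 1.44 times that of WT. Against the Pit1 lineage clusters alone, 238 genes in place of 158 were higher in cluster 14. The cause was not tested. Weighting clusters equally turned Mgp to a smallest log2 ratio of -0.996 over other cells, and the unfolded protein response median was 0.011 in KO against HT. Of 318 recomputed values of named genes, 253 stayed within their interval (0.5 log2 units for ratios over other cells) and 64 moved further, and of 118 list medians 89 moved by less than 0.1. Depth was lowest in HT, with 52 cells, so a gene needs about 5.22 CPM there to lie above the limit of 3 counts.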
